A study of Zea mays with 6 samples.

Results

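The 4 genes Zm00001d019155, Zm00001d019156, Zm00001d049243 and Zm00001d049476 were described here as the abundant alpha-zein loci that lie outside 2 large alpha-zein ID clusters. They are 4 of the 33051 genes listed in each expression table, and all 4 were found in all 6 libraries. They were chosen by their high mean FPKM in these same libraries, with no numerical threshold stated, so their abundance is a description and not a finding. The tables give gene IDs alone. That the 4 IDs are alpha-zeins comes from the definition of the gene set, and the RefSeq gene table of Zm-B73-REFERENCE-NAM-5.0 matched 0 of the 4.

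Alpha-zeins are the main prolamin storage proteins of the maize kernel. They are made in the starchy endosperm, the tissue that fills with starch and protein, and are packed into protein bodies derived from the endoplasmic reticulum. Their genes form a multigene family of similar copies, many in tandem arrays, and their transcripts are known to be among the most abundant of the filling endosperm. Opaque2 and the prolamin-box binding factor are transcription factors known to activate zein genes.

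Messenger RNA was sequenced from whole kernels of the maize inbred line KN5585 at 10 days after pollination. The 3 control libraries came from non-transgenic KN5585 kernels, and the 3 transgenic libraries from kernels of KN5585 transformed with ZmSUS1, the gene of a sucrose-cleaving enzyme, sucrose synthase. A single transgenic line was used, and the labels do not name the promoter that drives the transgene. The libraries of a group are described as biological replicates, but how many ears or plants each holds is not given. Values are FPKM (fragments scaled to transcript length and to the mapped fragments of the library), so levels of different genes are compared per length. FPKM summed to between 1359751 and 1378937 per library, and fragment totals are not given. The transcript of ZmSUS1 itself (Zm00001d047253) stood at 214, 210 and 221 FPKM in the control libraries and at 155, 149 and 160 FPKM in the transgenic ones, lower where the labels would have it higher (limma, adjusted p = 0.000759). The groups are therefore named throughout by their labels.

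Among themselves, the 4 loci fell into 3 of very high level and 1 lower one. Zm00001d019155 averaged 90801 FPKM over the 6 libraries and ranked 2nd of all genes. Zm00001d049476 averaged 71613 FPKM and ranked 3rd, and Zm00001d049243 averaged 56404 FPKM and ranked 4th. Zm00001d019156, whose ID is next to that of Zm00001d019155, averaged 9059 FPKM and ranked 21st. The order among the 4 was the same in every library, and no locus overlapped with the next one down. Zm00001d019155 and Zm00001d049476 held ranks 2 and 3 in all 6 libraries, while Zm00001d049243 ranked 4th or 5th.

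The comparison of transgenic with control kernels asked whether these storage protein transcripts differ when ZmSUS1 is introduced. All 4 loci were higher in the libraries labelled transgenic, and in all 4 each transgenic library lay above each control library. Only Zm00001d019156 passed the test across all genes. The test was limma on log2(FPKM + 1) over the 20514 genes whose mean reached 1 FPKM, adjusted by Benjamini-Hochberg, with a threshold of 0.05. By this rule 2.88% of all tested genes were called higher, against 1 of the 4 loci, and 16.2% were called lower, against 0 of the 4 (0 also at an unadjusted p under 0.05). Groups that did not overlap, with transgenic higher, were found in 7.36% of all tested genes, and in 26.1% of the 69 genes averaging 1000 FPKM or more, the level class of the 4 loci. Of these 69 genes, 14.5% were called higher.

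Zm00001d019156 had 7921, 8051 and 7565 FPKM in control libraries 1 to 3 and 10304, 10083 and 10428 FPKM in transgenic libraries 1 to 3. The lowest transgenic library stood 2032 FPKM above the highest control, a gap wider than the whole range within either group. The means were 7846 ± 251 FPKM and 10271 ± 175 FPKM (SD, n = 3 each), which is 30.9% higher. On the log2 scale this is 0.39 ± 0.054 (SE; limma, adjusted p = 0.00243), higher in 3 of 3 transgenic libraries. Its rank rose from 23rd or 24th in the control libraries to 21st in each transgenic one.

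Zm00001d049476 had 64147, 65563 and 69821 FPKM in the control libraries and 72758, 75928 and 81460 FPKM in the transgenic ones. Both groups had their highest value in replicate 3, and the groups were separated by 2937 FPKM. The means were 66510 ± 2953 and 76715 ± 4404 FPKM (SD, n = 3 each), 15.3% apart. Its log2 difference of 0.21 ± 0.077 (SE) did not pass (limma, adjusted p = 0.0982), and the unadjusted 95% interval ran from 0.03 to 0.38.

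Zm00001d019155, the most abundant of the 4, had 82517, 85344 and 92986 FPKM in the control libraries and 93425, 95736 and 94799 FPKM in the transgenic ones. Control 3 stood close to the transgenic libraries, and only 439 FPKM separated it from the lowest of them. The means were 86949 ± 5416 and 94653 ± 1163 FPKM (SD, n = 3 each). Their log2 difference of 0.12 ± 0.076 (SE) did not pass either (limma, adjusted p = 0.286). Its 95% interval ran from -0.050 to 0.30.

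Zm00001d049243 had 53036, 54756 and 55255 FPKM in the control libraries and 56885, 60513 and 57983 FPKM in the transgenic ones. The groups were 1631 FPKM apart, less than the range within either group. The means were 54349 ± 1164 and 58460 ± 1860 FPKM (SD, n = 3 each), 0.10 ± 0.066 (SE) apart on the log2 scale (limma, adjusted p = 0.301). The 95% interval of the log2 difference ran from -0.047 to 0.26. An exact permutation test of 3 against 3 libraries, 2-sided, put each of the 4 loci at p = 0.1, the lowest value possible in this design.

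**Figure D1:**
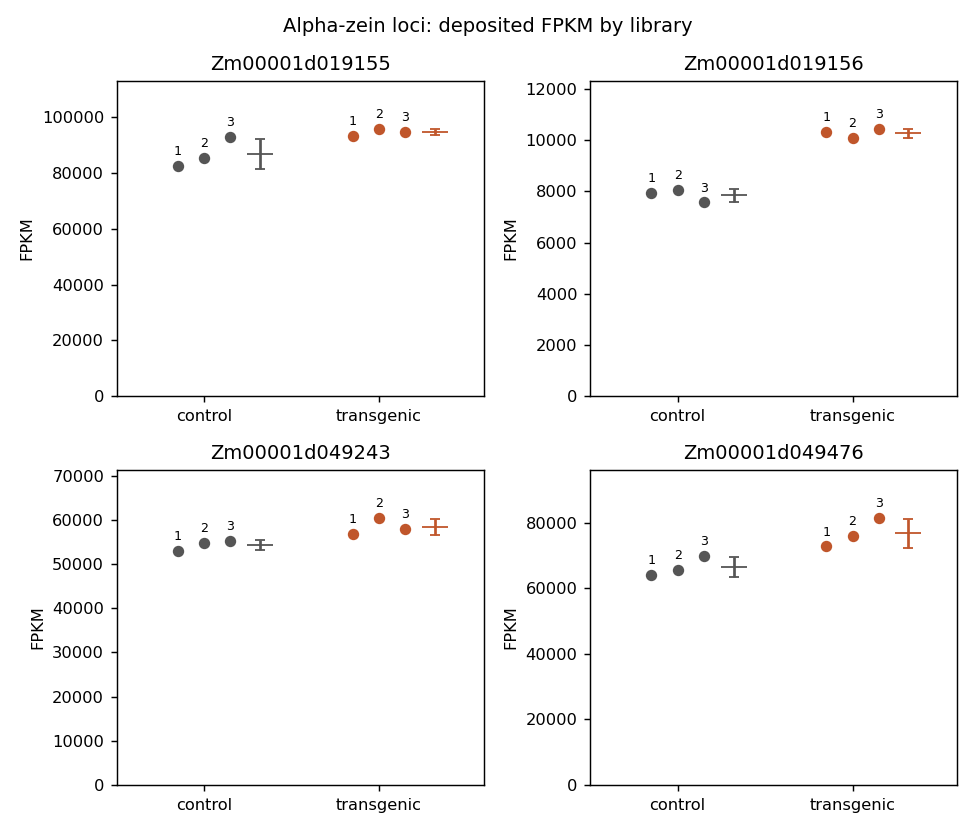
Deposited FPKM of the 4 loci (vertical axes, from 0) in each library, numbered by replicate, with the group mean and SD beside the points. The groups do not overlap at any locus; the gap is wide for Zm00001d019156 (7565 to 8051 against 10083 to 10428 FPKM) and narrow for Zm00001d019155, where control 3 at 92986 FPKM lies just below transgenic 1 at 93425 FPKM.

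When the replicate number was taken into account as a block, the 3 loci that had not passed were also called higher. With the replicate block, limma gave an adjusted p of 0.000880 for Zm00001d049476, 0.0168 for Zm00001d049243 and 0.0359 for Zm00001d019155, at the same fold changes. Zm00001d019156 passed with and without it. In this fit 3.49% of all tested genes were called higher. The pairing of equal numbers was picked from the values of these same libraries and not from a label. The adjusted p-values of this fit may therefore be too small, and its 3 added calls are given as a description.

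The size of each difference also depended on the scale. The median of all tested genes was lower in the libraries labelled transgenic, at a log2 fold change of -0.13. Relative to this median the 4 loci were higher by a log2 difference of 0.51 for Zm00001d019156, 0.33 for Zm00001d049476, 0.25 for Zm00001d019155 and 0.23 for Zm00001d049243. With median-ratio rescaling, which brings the median gene to 0.00064, all 4 were called higher, with log2 fold changes of 0.54 (limma, adjusted p = 0.000358), 0.35 (0.0179), 0.27 (0.0432) and 0.25 (0.0277) in that order, while 6.29% of all tested genes were called higher. The same 4 calls were made when libraries were scaled to what remains after removing the 20 most abundant genes, which include 3 of the loci (6.82% of all tested genes called higher). Scaled to the sum without the 4 loci and the 2 ID clusters, Zm00001d019156 and Zm00001d049476 were called higher (3.93% of all tested genes). With quantile normalization, which gives each rank the same value in every library, Zm00001d019155, Zm00001d049476 and Zm00001d049243 came out at 0, because their ranks were the same in both groups. Zm00001d019156 kept its call in each of its 18 alternatives, with log2 fold changes from 0.35 to 0.56 and an adjusted p of at most 0.0293 (limma). FPKM gives no absolute amount, and in whole kernels more transcript per cell and more cells of the tissue that makes it cannot be told apart.

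**Figure D2:**
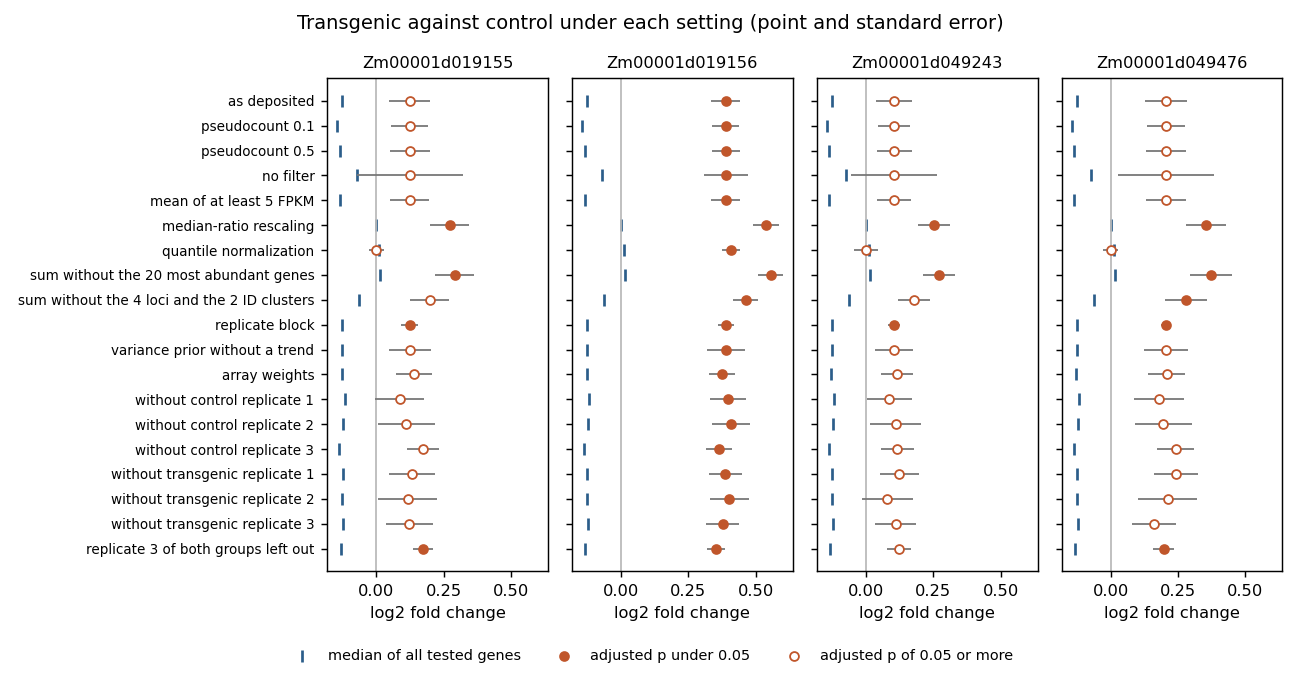
Log2 fold change of each locus, transgenic against control, under each setting (rows), with its standard error; filled points had a limma adjusted p under 0.05, and blue ticks mark the median of all tested genes in that setting. Zm00001d019156 was past the threshold in every row, and the 3 other loci in 3 to 5 of the 18 alternatives each.

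Together the 4 loci took a larger share of the libraries labelled transgenic. They held 15.2%, 15.7% and 16.6% of the summed FPKM in the control libraries and 16.9%, 17.7% and 17.99% in the transgenic ones. The shares did not overlap, and the means were 15.8 ± 0.712% and 17.5 ± 0.549% (SD, n = 3 each), a difference of 1.71 percentage points. By exact permutation p was 0.1, the lowest possible with 3 against 3 libraries. A larger share was not particular to the 4 loci. The ID cluster Zm00001d048806 to Zm00001d048817 held 13.8 ± 0.790% of the control and 15.6 ± 0.646% of the transgenic libraries, also without overlap (SD, n = 3 each). The ID cluster Zm00001d048847 to Zm00001d048852 held 10.5 ± 0.194% and 10.2 ± 0.266%, which overlapped (SD, n = 3 each). Single loci held 6.38 ± 0.412% and 6.91 ± 0.119% (Zm00001d019155), 4.88 ± 0.228% and 5.60 ± 0.360% (Zm00001d049476), 3.99 ± 0.0981% and 4.27 ± 0.147% (Zm00001d049243) and 0.576 ± 0.0181% and 0.750 ± 0.0153% (Zm00001d019156) of the control and transgenic libraries (SD, n = 3 each). On this scale the groups of Zm00001d019155 overlapped, since control 3 held 6.84% and transgenic 1 held 6.78%.

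The comparison with the alpha-zein ID clusters differed between the clusters. The first, Zm00001d048806 to Zm00001d048817, has 10 listed genes, and the second, Zm00001d048847 to Zm00001d048852, has 6. Each cluster holds every listed ID in its range, and whether each of them is an alpha-zein was not checked. The 4 loci amounted to 116%, 115% and 113% of the summed FPKM of the first cluster in the control libraries and to 112%, 115% and 109.8% in the transgenic ones. These values overlapped, with means of 114.7 ± 1.42% and 112.1 ± 2.53% (exact permutation test, p = 0.3, n = 3 each). Against the second cluster the 4 loci amounted to 148%, 151% and 155% in the control libraries and to 171%, 171% and 173% in the transgenic ones. These did not overlap, with means of 151 ± 3.98% and 172 ± 1.29% (exact permutation test, p = 0.1, the smallest it can give, n = 3 each). Against both clusters together the 4 loci went from 65.2 ± 0.291% to 67.9 ± 0.791% (exact permutation test, p = 0.1, n = 3 each). These ratios within a library do not depend on how libraries are scaled to each other. They show unequal change and not which side changed.

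**Figure D3:**
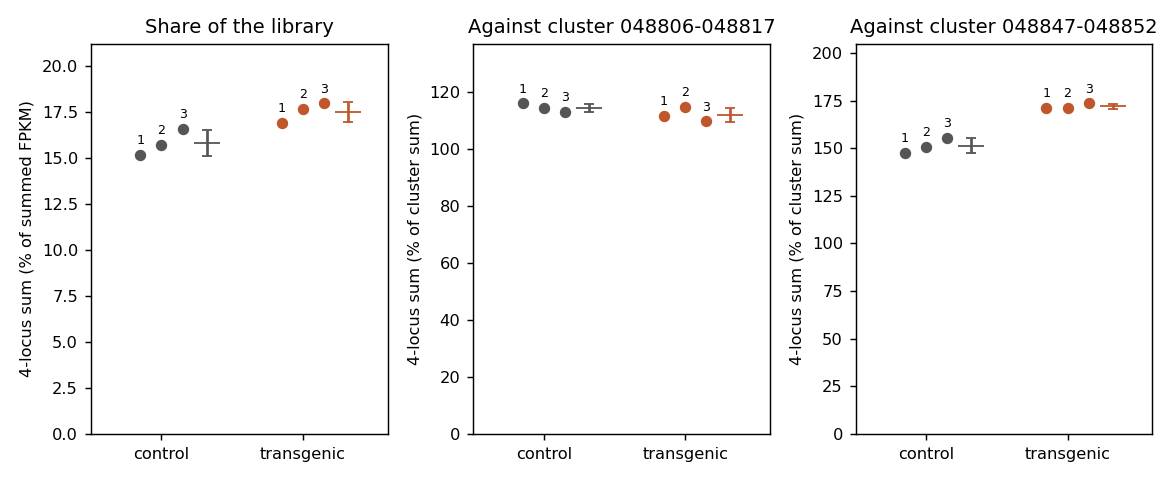
Summed FPKM of the 4 loci in each library (numbered by replicate, with group mean and SD) as a percent of all summed FPKM, of the cluster Zm00001d048806 to Zm00001d048817 and of the cluster Zm00001d048847 to Zm00001d048852; all axes start at 0. The share of the library and the percent of the second cluster are higher in every transgenic library, while the percent of the first cluster overlaps between the groups.

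Gene by gene, the first cluster had 3 of its 10 genes called higher and 1 called lower, beside 2.88% higher and 16.2% lower of all tested genes (limma). The second had 0 of 6 called in either direction (limma; 0 at an unadjusted p under 0.05 as well), a count too close to these shares to say anything about it or to set it apart from the first. Without overlap between the groups, 5 of the 10 genes of the first cluster were higher in transgenic and 2 were lower. In the second cluster 0 of 6 were higher and 0 lower in this way, beside 1509 higher and 6480 lower of the 20514 tested genes. The median log2 fold change was 0.22 in the first cluster and -0.047 in the second, beside 0.16 over the 4 loci and -0.13 over all genes tested. Those of the first cluster ran from -0.79 for Zm00001d048814 to 0.56 for Zm00001d048807, which did not pass (limma, adjusted p = 0.221). Zm00001d048814 fell from 7.21 to 3.82 FPKM and was the gene called lower. In the second they ran from -0.21 for Zm00001d048850 to 0.066 for Zm00001d048852. Zm00001d048850 stood at 15.7 ± 10.8 FPKM in the control and 13.5 ± 9.06 FPKM in the transgenic libraries (SD, n = 3 each). Zm00001d048814 and Zm00001d048850 were thus far less abundant than the other 14 cluster genes, which averaged 1000 FPKM or more. The called count of the first cluster depended on the fit. With the replicate block 6 were called higher and 2 lower, beside 3.49% and 18.3% of all tested genes. Without transgenic 2, 1 was called higher, beside 1.73% of all tested genes, and without control 3 it was 5, beside 2.21%.

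Within the 4-locus sum, Zm00001d019156 took a larger part in the libraries labelled transgenic. It made up 3.82%, 3.77% and 3.35% of the sum in the control libraries and 4.42%, 4.16% and 4.26% in the transgenic ones. Zm00001d049476 made up 30.9%, 30.7% and 30.9% and then 31.2%, 31.3% and 33.3%. Neither overlapped between the groups, and transgenic 3 stood apart from the other transgenic libraries for Zm00001d049476: without it the difference of 1.098 percentage points became 0.419. The parts of Zm00001d019155 (40.3 ± 0.799% and 39.4 ± 0.648%) and Zm00001d049243 (25.2 ± 0.632% and 24.4 ± 0.640%) overlapped between the groups (SD, n = 3 each). The exact permutation tests gave p = 0.1 for Zm00001d019156 and Zm00001d049476, 0.2 for Zm00001d049243 and 0.3 for Zm00001d019155, and 0.2, 0.2, 0.267 and 0.3 after adjustment over the 4.

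The 2 neighbouring IDs did not move in proportion. Zm00001d019156 stood at 9.60%, 9.43% and 8.14% of the FPKM of Zm00001d019155 in the control libraries and at 11.03%, 10.5% and 11.0% in the transgenic ones (exact permutation test, p = 0.1, the smallest it can give, n = 3 each). Control 3 had the lowest ratio, with the highest control value of Zm00001d019155 and the lowest of Zm00001d019156. Zm00001d049243 stood at 62.6 ± 2.77% and 61.8 ± 1.27% of Zm00001d019155 (SD, n = 3 each), which overlapped (exact permutation test, p = 0.8). These ratios were chosen after the values were seen. None of the 4 loci had values identical to another gene. Reads of similar zein copies may be split between loci by the counting, inside or outside the 4, which was not tested.

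**Figure D4:**
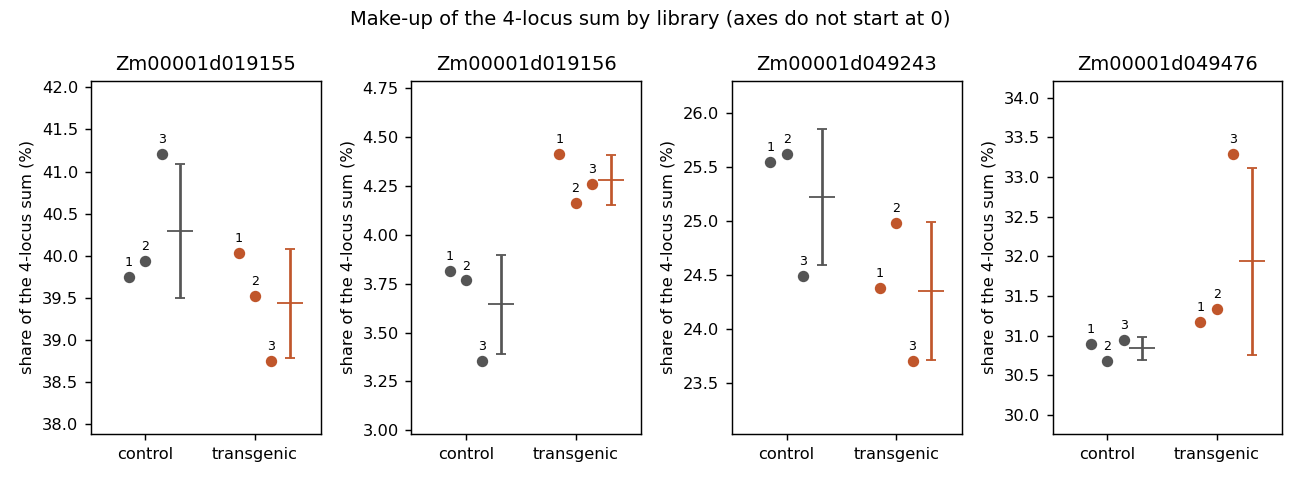
Share of each locus in the 4-locus sum (percent; axes do not start at 0) in each library, numbered by replicate, with the group mean and SD. Zm00001d019156 lies between 3.35% and 3.82% in the control libraries and between 4.16% and 4.42% in the transgenic ones, and transgenic 3 stands apart for Zm00001d049476 at 33.3%.

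The spread between replicates of the 4 loci stayed within a few percent of their means. The coefficient of variation (SD over mean) in the control libraries was 6.23% for Zm00001d019155, 4.44% for Zm00001d049476, 3.20% for Zm00001d019156 and 2.14% for Zm00001d049243. In the transgenic libraries it was 1.23%, 5.74%, 1.70% and 3.18% in the same order. The median of the 69 genes averaging 1000 FPKM or more was 6.23% in the control and 5.02% in the transgenic libraries. The 14 genes of both ID clusters at that level ran from 1.96% to 36.5% with a median of 9.12% in the control libraries, and from 0.651% to 40.2% with a median of 8.64% in the transgenic ones. Some cluster genes were thus as tight as the 4 loci, such as Zm00001d048816 at 1.96% and 0.651%, and a low spread is not particular to the 4 loci. Replicate 3 stood apart from replicates 1 and 2 in some other abundant zeins. For the 4 loci it was at 0.947 to 1.11 times the mean of replicates 1 and 2 in the control libraries. In the transgenic libraries this ratio was 0.988 to 1.096. For the 14 cluster genes it ran from 0.547 to 1.80 and from 0.501 to 1.91. Their medians were 1.085 in the control and 1.029 in the transgenic libraries, beside 1.051 and 1.013 for the 4 loci. Zm00001d048816 was at 0.969 and 0.995, so a steady replicate 3 is not particular to the 4 loci either. Leaving replicate 3 out of both groups gave log2 fold changes of 0.35 for Zm00001d019156, 0.20 for Zm00001d049476 (limma, adjusted p = 0.0224) and 0.17 for Zm00001d019155 (limma, adjusted p = 0.0306), the latter 2 then past the threshold, in a fit that called 2.04% of all tested genes higher.

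**Figure D5:**
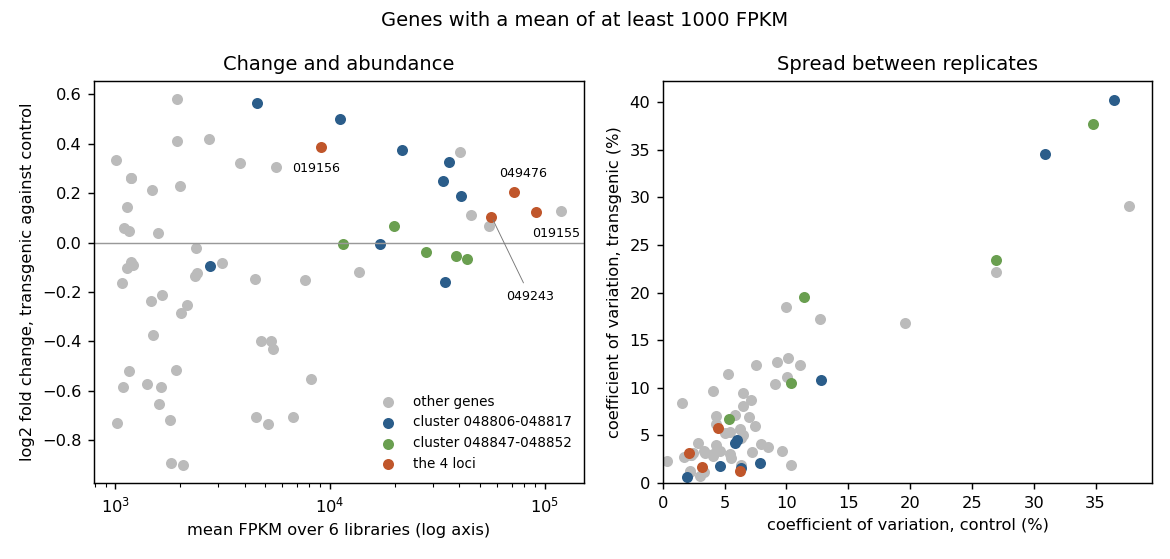
The 69 genes averaging 1000 FPKM or more: log2 fold change against mean FPKM on a log axis (left) and the coefficient of variation in the transgenic against the control libraries (right). The 4 loci, labelled on the left by the last digits of their IDs, lie above 0 (0.10 to 0.39), and on the right their coefficients of variation do not exceed 6.23%, while cluster genes run from 0.651% to 40.2%.

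Around the 4 loci, the genes with nearby ID numbers were mostly far less abundant. Of 30 listed genes within 10 ID numbers of a locus, 22 were tested, 0 were called higher (1 at an unadjusted p under 0.05) and 4 were called lower (limma), beside 2.88% higher and 16.2% lower among all tested genes. Both counts are near those shares and say nothing particular about the neighbours. Their median log2 fold change was -0.051. With the replicate block 2 were called higher, beside 3.49% of all tested genes. With median-ratio rescaling 2 were called higher and 2 lower, beside 6.29% and 7.36%. Zm00001d049244, next to Zm00001d049243, fell from a mean of 63.9 ± 5.39 FPKM to one of 40.4 ± 2.73 FPKM (SD, n = 3 each; limma, adjusted p = 0.00153). Near Zm00001d019155 and Zm00001d019156, Zm00001d019163 fell from 34.2 ± 4.02 FPKM in the control libraries to 21.3 ± 0.261 FPKM in the transgenic ones (SD, n = 3 each; limma, adjusted p = 0.00236). Zm00001d019149 and Zm00001d019166 fell by 0.29 and 0.31 on the log2 scale (limma, adjusted p = 0.0276 and 0.0439). Within 10 ID numbers of Zm00001d049476 only Zm00001d049469, Zm00001d049479 and Zm00001d049480 were tested. None passed (limma), and they are too few to set against the shares of all tested genes. Nearby ID numbers are taken here to mean nearby genes, and the files do not say what these neighbours encode.

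Over the 6 libraries, the gene most like a locus in pattern was in the first cluster for 3 of the loci. For Zm00001d049243 it was not, and the genes named next for each locus lay in neither cluster. Among 683 other genes averaging 100 FPKM or more, the most like Zm00001d019156 was Zm00001d048816, with a Pearson correlation of log2(FPKM + 1) of 0.994. The most like Zm00001d049476 was Zm00001d048808 (0.986), and the most like Zm00001d019155 was Zm00001d048809 (0.971). All 3 belong to the first cluster. For Zm00001d049243 it was Zm00001d009652 (0.942), which lies in neither cluster. The next in line were Zm00001d002326 and Zm00001d030557 for Zm00001d019156, Zm00001d037961 and Zm00001d043382 for Zm00001d049476, Zm00001d011741 and Zm00001d010159 for Zm00001d019155, and Zm00001d014957 and Zm00001d043070 for Zm00001d049243. These lie in neither cluster. Each gene named was picked as among the highest of 683 correlations over 6 libraries, so high values come in part from the picking. The correlations hold the difference between the groups as well as the spread within them, and similar copies may share reads, so they are given as a description. Taken as deviations from the group means, the correlation was 0.974 for Zm00001d019155 with Zm00001d048809, 0.971 for Zm00001d049476 with Zm00001d048808, 0.698 for Zm00001d019156 with Zm00001d048816 and 0.771 for Zm00001d049243 with Zm00001d009652. Between Zm00001d019155 and its ID neighbour Zm00001d019156 this correlation was -0.797.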

How the data were processed

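For each library the authors deposited FPKM values of all listed genes, per the file headers, with 2 decimals. The aligner, counter, genome build and annotation they used are not given in the sources at hand. The submitters' processing notes mention DESeq2 without a role. FPKM does not show the depth, so counting intervals and floors are not given. All 4 loci passed the filter of a mean of at least 1 FPKM.

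From the deposited values, log2(FPKM + 1) of 20514 genes was fitted with limma 3.58.1 in R 4.3.3 (3 against 3 libraries, moderated variance with a mean trend, 2-sided). p-values were adjusted over all tested genes. The fold changes therefore carry the pseudocount of 1. The fit was tested on simulated data, where it recovered 39.7% of genes changed 1.5-fold, 62.3% at 2-fold and 91.8% at 4-fold. Of its calls there, 3.85% were false. The 200 changed genes were drawn from all 20514 tested genes, at any level. These rates are averages over such genes and not the rates for genes as abundant as the 4 loci. The differences of the 4 loci, 1.08-fold to 1.31-fold as deposited, were smaller than any simulated. A locus that did not pass is therefore not shown to be unchanged. Shares and ratios were compared with exact permutation tests (scipy 1.17.1), which cannot go below p = 0.1. The p-values set the difference between the groups against the spread between these libraries. With a single transgenic line they do not speak for other lines.

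Groups and replicate numbers came from the sample titles. Libraries with the same number deviated together from the means of their groups, with correlations across genes of 0.135, 0.122 and 0.325, all over 0.1, so the numbers were taken as pairs. Control 2 and transgenic 1 also reached 0.105, and control 1 and transgenic 2 reached 0.085. The values thus set apart the pair of replicate 3 and hardly tell replicates 1 and 2 from each other.

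The loci, lists and tests were chosen with earlier results of these data known. The named genes are the 4 loci, the lowest and highest log2 fold change of each ID cluster, the 3 most similar genes per locus by Pearson correlation and the called ID neighbours. Markers of other kernel tissues could not be named, because the reference gene table matched 199 of the 33051 IDs and 0 of the 4 loci.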

Additional observations from a re-analysis of the deposited data

How the results depend on the processing

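Zm00001d019156 stayed higher and past the threshold in all 18, and no locus turned lower, although quantile normalization set 3 of them to 0. The groups did not overlap at any locus, so only the rescalings and quantile normalization could have turned one lower. Under median-ratio rescaling the log2 fold changes of Zm00001d019155, Zm00001d049243 and Zm00001d049476 passed at 0.27, 0.25 and 0.35, and after scaling to the library without its 20 most abundant genes at 0.29, 0.27 and 0.37. With the replicate block, a pairing picked from these same values, they passed at 0.12, 0.10 and 0.21. It changed no call of Zm00001d019156. Zm00001d049476 also passed with the sum without the loci and both clusters (0.28), and Zm00001d019155 and Zm00001d049476 without replicate 3 of both groups (0.17 and 0.20). The cause was not tested.

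Over all genes 591 were called higher and 3316 lower. Median-ratio rescaling gave 1290 and 1510, quantile normalization 1361 and 1445, and scaling without the 20 most abundant genes 1399 and 1400. Without the loci and clusters in the sum, 2136 were lower. Leaving out single libraries gave 354 (without transgenic 2) to 459 higher and 1931 (without control 1) to 2863 lower, each from 5 libraries. Higher calls were 387 without control 2 and 388 without transgenic 1, and lower calls 1958 without control 2 and 2116 without transgenic 2.

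In the first cluster 3 genes were called higher, and 1 with no filter, 5 with median-ratio rescaling and with either reduced sum, 6 with the replicate block and without replicate 3 of both groups, and 1 to 5 without single libraries. Its lower calls went from 1 to 2 with quantile normalization, the replicate block and without replicate 3 of both groups. Among ID neighbours 0 were called higher, but 1 with no filter and without the loci and clusters in the sum, and 2 with median-ratio rescaling, quantile normalization, scaling without the 20 most abundant genes, the replicate block and without replicate 3 of both groups. Their 4 lower calls became 2 with these 3 scalings, with the sum without the loci and clusters and with a variance prior without a trend, and 2 to 4 without single libraries.

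The share of the 4 loci stayed higher in all 10 alternatives, but most of these could not have turned it lower. The shares did not overlap, so leaving libraries out keeps the sign, and the sign-flip test uses the same difference. Only a changed denominator could reverse it. The difference was 4.53 percentage points without the loci and clusters in the denominator and 9.42 without the 20 most abundant genes. Relative to the first cluster alone the 4 loci were lower by -2.57 percentage points, whereas they were higher relative to both clusters. An exact sign-flip test within replicate numbers gave p = 0.25 for the share, the lowest possible with 3 pairs. Depth is not known, and how reads of similar copies were split was not tested.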
